A study of Rattus norvegicus with 3 samples.

Results

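β-END(1-9) is a fragment from the amino end of β-endorphin, an opioid peptide that is cut from the precursor proopiomelanocortin. The array of FRSK cells given β-END(1-9) was compared, gene by gene, with the array of unstimulated FRSK cells. FRSK is a keratinocyte line from fetal rat skin. The peptide was given at 100 nM for 24 h, in medium with serum, and each group is 1 culture on 1 array. The control received no peptide, and whether it was given vehicle is not stated in the sources used here. The remaining array of the series, from cells given Met-enkephalin (Met-ENK) at the same dose and time, enters the level filter and is quoted beside the other values. It shares the control array, so its differences are no second measurement of the same thing. Both peptide arrays and the control come from 1 cell line, so the values describe that line in culture and not skin. Genes were taken by the deposited log2 signal of their transcript cluster, which is the probe set for a whole transcript. A gene was kept when its mean signal, taken over all 3 arrays, reached the median of the named genes (6.41), and 7519 of 15037 named genes met this. A gene under the limit on 1 array can thus pass through its signals on the others, and the counts below include such genes. Just inside that limit, Fli1 had signals of 6.01 (control), 6.34 (β-END(1-9)) and 6.89 (Met-ENK), and just outside it was Slx4ip, whose mean was also 6.41 after rounding.

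β-endorphin and the enkephalins bind the µ, δ and κ opioid receptors, which couple to inhibitory G proteins, lower cyclic AMP and can feed into MAP kinase signalling. Keratinocytes are known to make opioid peptides and their receptors, and in skin these peptides have been linked to growth, differentiation, wound repair and itch. Met-enkephalin is the amino-terminal stretch that β-endorphin begins with, so both peptides given in the series share that end. Further receptors bind opioid peptides without being classical opioid receptors: the opioid growth factor receptor, and the scavenging chemokine receptor encoded by Ackr3.

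All differences below are β-END(1-9) minus control on the log2 scale, between single arrays. There is no replicate check, no test was run and no p-value or error can be given. Higher and lower describe the 2 arrays compared and not a response of the cells. In RNA from a whole culture, fewer cells of a kind and less RNA per cell cannot be told apart. Signals above 7.6 were called above background, because the array's 23 background probe sets lay between 2.51 and 7.57 on both arrays.

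Few of the genes that passed the level filter differed strongly, and most of those were lower on the β-END(1-9) array. With 1.5-fold as the limit, which is 0.58 on the log2 scale, 42 of the 7519 genes were higher (0.559%) and 171 were lower (2.27%), which makes 213 in all (2.83%). Of those 213 genes 80.3% were lower. This split depended on the scaling, and it was 64.8% lower after quantile normalization of the deposited columns. It also depended on the level filter: over all 15037 named genes 397 were higher and 296 lower (42.7% lower). The standard deviation of the signals over all transcript clusters was 3.42 on the control array and 3.35 on the β-END(1-9) array. The part that this spread has in the split was not tested. Among the 6187 genes above background on both arrays, 12 were higher (0.194%) and 96 lower (1.55%), or 88.9% lower. At 2-fold, 0 of these genes were higher and 2 were lower (0.0323%), Dhrs1 and Rprd1b. The middle of the distribution was close to 0. The median difference of all 7519 genes was -0.03, the mean -0.09 and the standard deviation across genes 0.21. From the 5th to the 95th percentile the differences ran from -0.47 to 0.20. Exactly equal values on both arrays were found for 1887 genes (25.1%), while 4220 were lower (56.1%) and 1412 higher (18.8%) by any amount. The counts of lower and higher genes in the lists below are to be read against these shares. So are the equal values named below, which do not show that a gene was unchanged.

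**Figure D1:**
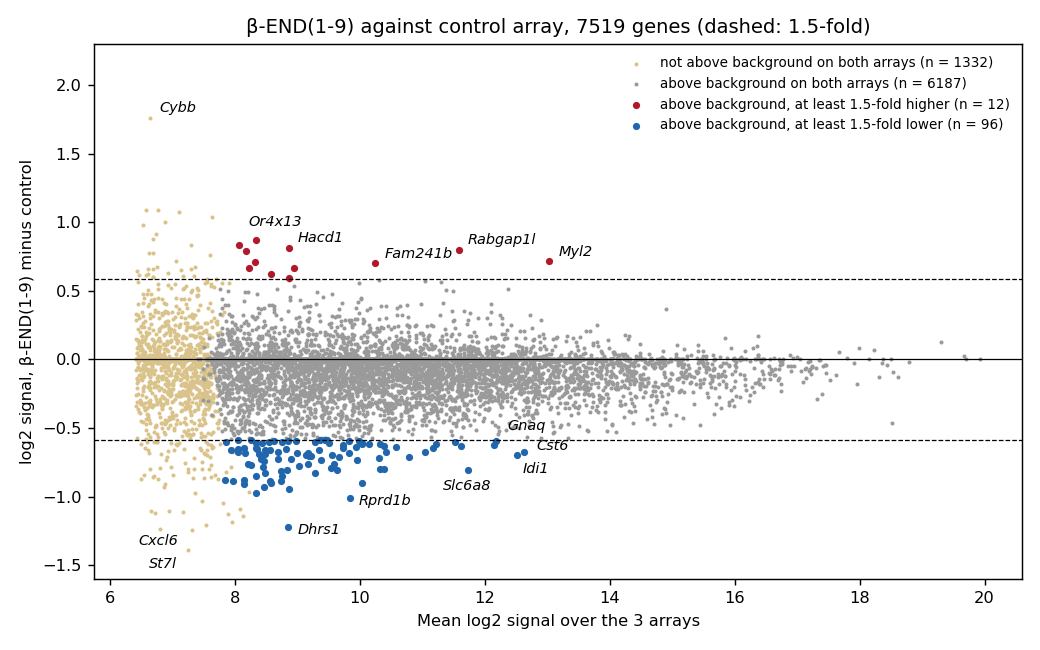
Difference in log2 signal, β-END(1-9) minus control, against the mean log2 signal over the 3 arrays, with 1 point per gene for 7519 genes. Dashed lines mark 1.5-fold, red points the 12 genes at least 1.5-fold higher and blue points the 96 at least 1.5-fold lower among genes above background on both arrays, and the furthest single point, Cybb, lies at background level.

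The differences depended on the level of the gene. Among genes with a mean signal up to 7.6, 2.27% were at least 1.5-fold higher and 4.55% lower. Between 7.6 and 9 these shares were 0.675% and 4.32%, between 10 and 11 they were 0.092% and 1.10%, and over 13 they were 0.109% and 0%. The standard deviation across genes was 0.29 in the lowest of these bins and 0.13 in the highest. The median difference was 0 up to a mean of 9 and -0.07 over 13. Scatter at low signal and differences between cultures cannot be told apart with 1 array a side.

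The genomic length of a gene had little relation to the share that was lower. Over quintiles of genomic span, from the shortest to the longest genes, 38, 37, 28, 29 and 39 genes were at least 1.5-fold lower. The same counts for the Met-ENK array against the shared control were 204, 117, 73, 36 and 23, out of 453 genes lower (6.02%) and 52 higher (0.692%). Higher genes on the β-END(1-9) array numbered 14, 11, 7, 6 and 4 over the quintiles.

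**Figure D2:**
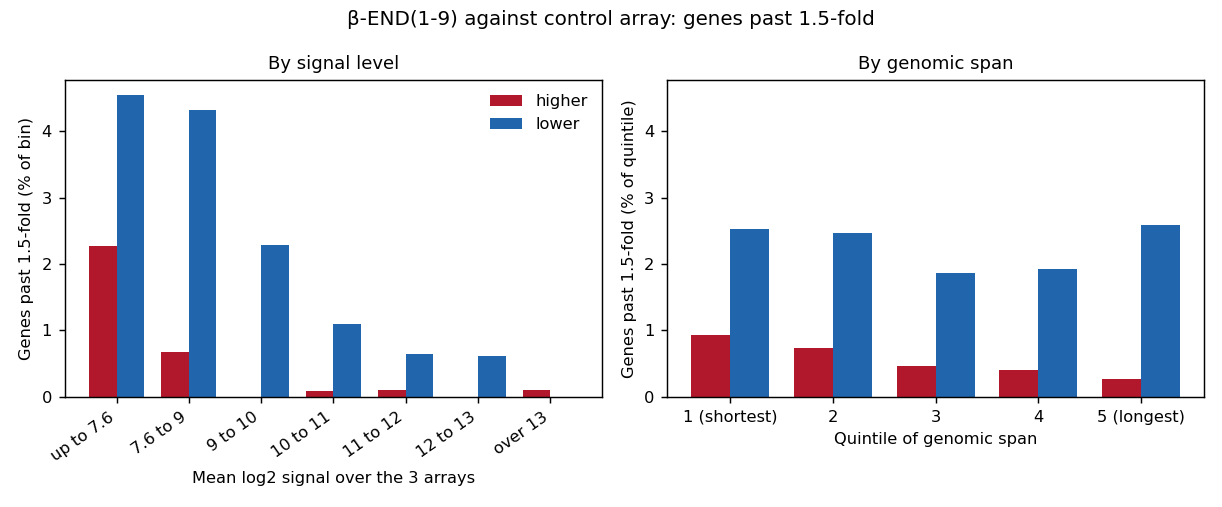
Share of genes (%) at least 1.5-fold higher (red) or lower (blue) on the β-END(1-9) array than on the control array, by mean log2 signal at left and by quintile of genomic span at right. The share of lower genes runs from 4.55% in the lowest level bin to 0% over 13, and from 1.86% to 2.59% over the span quintiles.

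The cells carried keratinocyte transcripts on every array. Of 14 listed keratinocyte markers 7 were matched by symbol, and all 7 were above background. Krt14, the type I keratin of basal keratinocytes, had signals of 16.70 (control), 16.63 (β-END(1-9)) and 16.61 (Met-ENK). Itga6, the integrin chain that anchors basal cells to the basement membrane, had 16.46, 16.47 and 16.95, and its partner Itgb4 had 13.69, 13.69 and 13.71. Cdh1, the epithelial cadherin, had 15.48, 15.42 and 15.79. The larger differences among the 7 were -0.32 for Lamb3, a chain of the anchoring laminin (15.37 and 15.05), and -0.25 for Perp, a desmosomal membrane protein (17.45 and 17.20). The gene of p63, the regulator of stratified epithelium, is named Tp63 in rat and was looked up after the list had been matched; it had 14.60, 14.33 and 14.68. The remaining 6 markers, among them Krt5 and Dsp, are not analysed here. Of the 7 matched markers 0 were past 1.5-fold.

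The classical opioid receptor genes were at background on both arrays. Oprm1, for the µ receptor, had 2.63 (control) and 2.73 (β-END(1-9)). Oprd1, for the δ receptor, had 5.70 and 6.07, and Oprk1, for the κ receptor, had 3.70 and 3.88. Oprl1, for the nociceptin receptor, was listed at 4.07 on both. At such signals presence and absence of a transcript look the same. The 3 receptor genes above background were nearly equal on the arrays: Ogfr, for the opioid growth factor receptor, with 9.67 and 9.71, its relative Ogfrl1 with 10.72 and 10.80, and Ackr3 with 9.16 on both. In the receptor list 12 of 13 genes were measured and 4 passed the level filter, of which 0 differed by 1.5-fold.

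Genes for opioid precursors and for the enzymes that process them were lower in 5 of the 5 cases that passed the level filter, with a median of -0.11 (-0.01 after quantile normalization), and 0 of them reached 1.5-fold. Of all genes 56.1% were lower by any amount. The member furthest from control was Penk, the proenkephalin gene from which Met-enkephalin itself is cut, with 10.05 (control), 9.49 (β-END(1-9)) and 9.24 (Met-ENK), a difference of -0.56. Pam, the enzyme that amidates peptide ends, had 11.76, 11.39 and 12.03. Furin, a proprotein convertase, had 11.01, 10.90 and 11.24. Pomc, which encodes the precursor of β-endorphin, was at background with 3.08, 3.36 and 3.07. Penk and Pam were thus the members with the wider gaps, and neither passed the fold used here.

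Peptidases that cleave opioid peptides were near their control values. Of 9 genes passing the filter, 2 were higher, 4 lower and 3 exactly equal, with a median of 0 (0.09 after quantile normalization). Rnpep, aminopeptidase B, had the largest difference, with 8.84 and 8.51, and Nln, the oligopeptidase neurolysin, was on the other side with 8.95 and 9.14. Ide, the insulin-degrading enzyme, which also cuts β-endorphin, had 13.40 and 13.20.

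Signalling genes downstream of the receptors held few members past 1.5-fold, with 0 or 1 in each direction in each list, and over all genes 0.559% were higher and 2.27% lower by that fold. Of 26 genes for G proteins, RGS proteins and β-arrestins, 7 were higher and 13 lower, and 1 was past 1.5-fold in each direction. Gnaq, the α subunit that activates phospholipase C, had 12.44 on the control array and 11.84 on the β-END(1-9) array, a difference of -0.60, and was called under 1 of 4 other scalings. Gng5, a γ subunit, had 12.56 and 12.10. The inhibitory subunit genes Gnai1, Gnai2 and Gnai3, which opioid receptors use, differed by -0.20, -0.07 and 0. Rgs3 and Rgs6 belong to the family that speeds the shutdown of Gα subunits. Rgs3 had 8.56, 9.14 and 8.87 on the control, β-END(1-9) and Met-ENK arrays, just short of 1.5-fold, and Rgs6 had 10.85, 11.42 and 10.85. Gngt1, a γ subunit best known from rod photoreceptors, was below background on the control array (7.13) and above it with β-END(1-9) (8.17).

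The cyclic AMP list held 15 genes, of which 11 were lower and 2 higher, with a median of -0.11 (-0.02 after quantile normalization) and 0 past 1.5-fold. Over all genes 56.1% were lower and 18.8% higher by any amount. Prkar2b, a regulatory subunit of protein kinase A, had 8.63 and 8.10, and Adcy2, an adenylyl cyclase, had 9.15 and 8.77. Rapgef3, the cAMP-activated exchange factor Epac1, was on the other side with 9.38 and 9.80. Immediate early genes, the transcription factors that follow growth factor and kinase signals, were lower in 17 of 20 cases with a median of -0.07 (0.00 after quantile normalization, so its sign depends on the scaling). The medians of all genes were -0.03 and 0.04 in the same order, so the list lay slightly below them in both. Klf4, a Krüppel-like factor of differentiating epidermis, was the member past 1.5-fold, with 8.40 and 7.81, and it was called under 1 of 4 other scalings. Fosl2 (12.96 and 12.39) and Srf (11.77 and 11.25) were the next. Egr1 (13.80 and 13.79), Junb (11.88 on both) and Ier2 (8.45 on both), which respond quickly to stimulation, were equal or nearly so at this 24 h time point.

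Among 20 MAP kinase genes 12 were lower and 2 higher, beside 56.1% and 18.8% of all genes. Mapk8, which encodes the stress kinase JNK1, had 8.70 (control), 7.91 (β-END(1-9)) and 8.70 (Met-ENK), a difference of -0.79. Mapk9, for JNK2, had 10.94, 10.48 and 10.33, and Map2k7, a kinase that activates both, had 10.02, 9.58 and 9.97. Of the EGF receptor family and its ligands, 8 of 12 were lower, with a median of -0.14 (-0.05 after quantile normalization) and 0 past 1.5-fold. The ligand genes differed among themselves: Nrg1 had 13.81 and 13.29, Tgfa 13.35 and 13.04, Areg 10.07 on both, and Ereg 14.25 and 14.29. Egfr itself had 10.20 and 10.16.

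Of the 12 higher genes above background only Mnt, Myl2 and Decr1 were in any of the gene lists. The lists therefore cannot show whether the 12 share a role. The largest difference, 0.87, was that of Or4x13 (7.85 and 8.72), an olfactory receptor gene; this family has many near copies, so the probe set may not be particular to it. Hacd1, a dehydratase of very long fatty acid elongation, had 8.52 (control), 9.34 (β-END(1-9)) and 8.72 (Met-ENK). Rabgap1l, which regulates Rab GTPases, had 11.16, 11.96 and 11.64. Decr1, a reductase used in the mitochondrial oxidation of unsaturated fatty acids, had 7.97, 8.64 and 8.03. Trappc4, a subunit of the TRAPP tethering complexes, had 8.82, 9.48 and 8.52. Prrg2, a vitamin K-dependent membrane protein, had 7.81, 8.64 and 7.76. The remaining 6 were Mnt, Myl2, Mcm3ap, Fam241b, Cdk18 and Pick1, with differences from 0.60 to 0.79. Of these 12 calls, 11 held in 4 other scalings, and Pick1 (8.64 and 9.23) held in 3. All 12 differences rose in 3 of those scalings, so this count does not show that the higher calls are firmer than the lower ones. Several started close to background, Mnt at 7.64 and Prrg2 at 7.81.

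Mnt and Max are partners in the Myc network. Max is the obligate dimer partner of Myc, and Mnt is a repressor that competes with Myc for Max at E-box elements. Mnt had 7.64 (control), 8.43 (β-END(1-9)) and 8.43 (Met-ENK), a difference of 0.79. Max had 11.05, 11.61 and 11.25, a difference of 0.56 that is just short of 1.5-fold. Mxd1, another Max-binding repressor, was on the other side with 8.35, 7.77 and 7.69. Myc had 13.73, 13.44 and 13.59. In the list of the Myc network and nucleolar ribosome assembly, 3 of 25 genes were higher and 14 lower, with a median of -0.04 (0.06 after quantile normalization). Fbl and Dkc1, of the complexes that modify ribosomal RNA, each had a difference of -0.38, and Npm1 and Nop56 were exactly equal. The promoters of Mnt and Max are shown because both genes lay on the higher side and because both windows hold the E-box CACGTG, which Myc family dimers bind. Each runs from 250 bases before to 50 bases after the start of the gene as RefSeq places it in build GRCr8, written in the direction of the gene, with the E-box in capitals. The Mnt window is chr10:60197709-60198008 on the plus strand, with the E-box from base -123 to -118 before the start. The Max window is chr6:101395241-101395540 on the minus strand, with the E-box from -33 to -28.
Mnt: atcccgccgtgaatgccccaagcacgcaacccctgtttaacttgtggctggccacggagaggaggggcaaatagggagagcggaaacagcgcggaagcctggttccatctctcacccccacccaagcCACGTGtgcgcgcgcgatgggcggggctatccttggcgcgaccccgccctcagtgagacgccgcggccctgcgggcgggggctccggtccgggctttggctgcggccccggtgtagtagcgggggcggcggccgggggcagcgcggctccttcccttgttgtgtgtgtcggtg
Max: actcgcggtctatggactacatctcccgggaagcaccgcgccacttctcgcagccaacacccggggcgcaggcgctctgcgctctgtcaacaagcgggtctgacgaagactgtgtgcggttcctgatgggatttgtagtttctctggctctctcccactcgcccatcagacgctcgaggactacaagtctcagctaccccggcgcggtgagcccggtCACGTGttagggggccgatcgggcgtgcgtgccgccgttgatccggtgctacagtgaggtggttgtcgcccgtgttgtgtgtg
The E-box is present in 6.65% of all 27457 promoters of the table and in 10.2% of the 6372 promoters matched to genes of this comparison. A match describes the letters and not a bound site.

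The same windows were searched for 5 other motifs on both strands. Of genes past 1.5-fold, 31 higher and 154 lower ones had a promoter in the table, and 7 of the 31 were above background on both arrays. The E-box was found in 3 of the 31 (9.68%) and 12 of the 154 (7.79%). TATAAA was found in 7 of the 31 (22.6%), in 8 of the 154 (5.19%) and in 6.23% of all 6372. The 7 higher genes that hold TATAAA were at background on at least 1 array, and it was in 0 of the 7 higher genes above background on both arrays. GCGTG, the core of the element that the aryl hydrocarbon receptor binds, was in 25.8%, 46.8% and 52.4% in that order. CCAAT was in 38.7%, 44.2% and 38.5%. TGACGTCA, the cyclic AMP response element, was in 3.23%, 1.95% and 3.64%. TTCNNNGAA, the element of STAT factors, was in 6.45%, 6.49% and 6.72%. Over all promoters of the table these 5 motifs stood at 14.3%, 31.1%, 37.7%, 1.91% and 8.68%. Among the higher genes, the shares furthest from those of all genes of the comparison were GCGTG and TATAAA, which rest on 8 and 7 genes. The median GC content of the windows was 58.3% for the higher, 61.0% for the lower and 61.7% for all matched genes. For the 7 higher genes above background on both arrays it was 69.0%, on the other side of the value for all genes.

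Of the lower genes above background, Dhrs1 was furthest from control. It encodes a short-chain dehydrogenase of the endoplasmic reticulum and had 9.44 (control), 8.22 (β-END(1-9)) and 8.89 (Met-ENK), a difference of -1.22. Rprd1b, which binds the tail of RNA polymerase II, had 10.43, 9.42 and 9.64 (-1.01). Ptbp2, a splicing repressor, had 8.62, 7.65 and 8.71. Ralgdsl2 had 8.88, 7.97 and 8.88, and Entpd7, a nucleotide hydrolase of vesicle membranes, had 8.99, 8.10 and 9.10. In the last 3 genes the Met-ENK array was close to control. Slc6a8, the creatine transporter, was the brightest of the 20 lowest genes, with 12.10, 11.29 and 11.79. The other 14 of the 20 lowest genes had differences from -0.94 to -0.80. They include Btg3, an antiproliferative factor (-0.89), Mark4, a microtubule affinity kinase (-0.83), Zfyve9, the SARA adaptor of the TGF-β receptor (-0.81), and Golgb1, the Golgi matrix protein giantin (-0.80). Of the 96 lower calls above background 51 held in all 4 other scalings. The scalings that raised the higher calls brought lower genes nearer to the limit, so the 2 counts of calls held cannot be compared. Of the genes named here as past 1.5-fold, Gnaq, Klf4, Mrpl53, Mettl6 and Gemin4 passed it in 1 of those 4 scalings, Atp5f1e, Ogt and Pttg1 in 2, and Cst6, Fuca1, Ndufb10, Krt76, Wnt5a, Ntaq1 and Pick1 in 3.

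**Figure D3:**
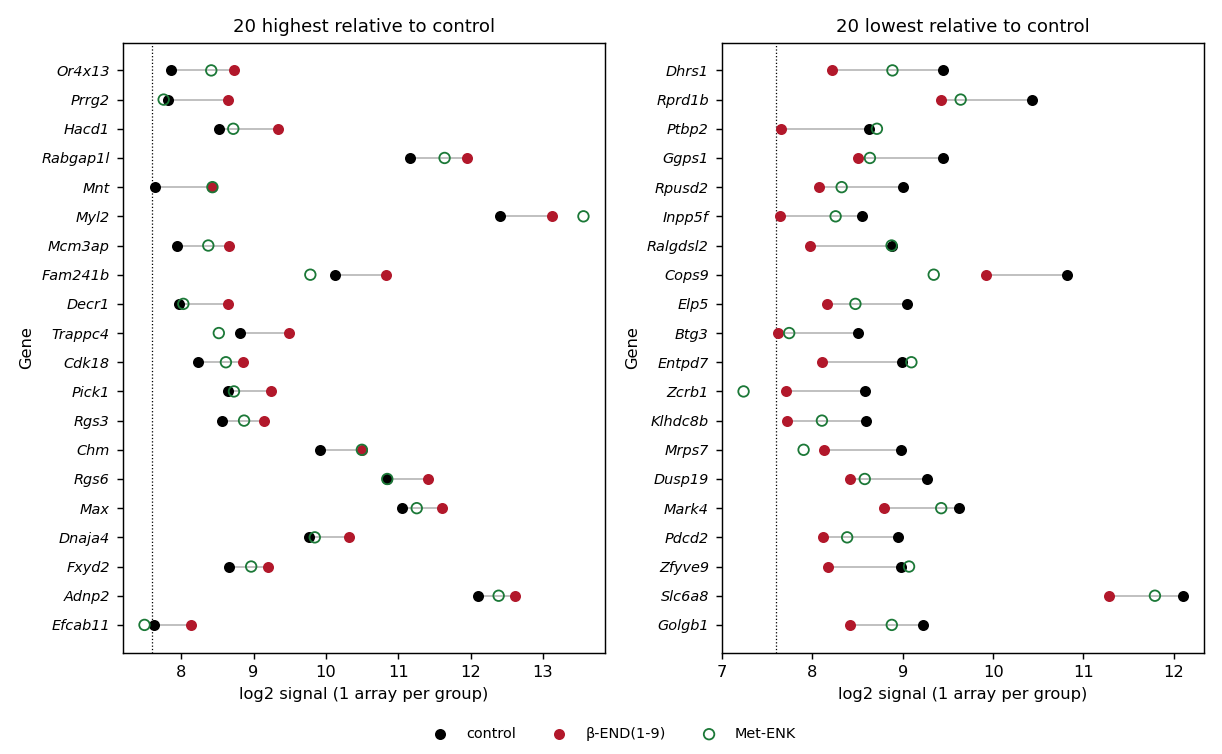
log2 signal on the control (black), β-END(1-9) (red) and Met-ENK (open green) arrays for the 20 genes furthest above (left) and the 20 furthest below (right) control among genes above background on both arrays, 1 array per group. The dotted line marks the background limit of 7.6, and the left panel runs from Or4x13 (0.87) to Efcab11 (0.52), the right one from Dhrs1 (-1.22) to Golgb1 (-0.80).

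A further 185 genes were above background on 1 of the 2 arrays, of which 9 were at least 1.5-fold higher (4.86%) and 42 lower (22.7%). This group holds larger shares by construction, since a gene must differ to lie on both sides of the limit. St7l had 7.83 (control), 6.44 (β-END(1-9)) and 7.48 (Met-ENK). Fn3krp, a kinase that repairs sugar-modified proteins, had 8.44, 7.31 and 7.93. P2ry10b, a relative of lysophospholipid receptors, had 8.67, 7.53 and 8.15. Bmal1, a core activator of the circadian clock, had 8.04, 7.17 and 7.29, and Wnt5a, a secreted Wnt ligand, lay on the same sides of the limit with a difference of -0.62. On the higher side Pih1d2 had 6.74, 7.82 and 6.74, and Nubpl, an assembly factor of respiratory complex I, had 7.22, 7.99 and 7.58. The side of the limit on which these genes lie rests on 1 signal near it. Above background on neither array were 1147 genes, of which 21 were at least 1.5-fold higher (1.83%) and 33 lower (2.88%).

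Across the gene lists the medians leaned to the lower side by small amounts. Of 61 lists with at least 8 genes passing the filter, 52 had a median below 0, 9 a median of exactly 0 and 0 a median above 0, and 29 lists had no member past 1.5-fold. The lowest was that of matrix proteases and plasminogen activators at -0.19, against -0.03 for all 7519 genes. The signs turned with the scaling: after quantile normalization, which moves the median of all genes to 0.04, 13 lists were below 0 and 48 above. After removal of a trend on level 25 were below 0 and 36 above, and with the arrays centred on their medians all 61 were below 0. The list medians are therefore given with their value after quantile normalization, and read against the median of all genes. Likewise, the counts of lower and higher genes in each list stand against 56.1% and 18.8% of all genes.

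**Figure D4:**
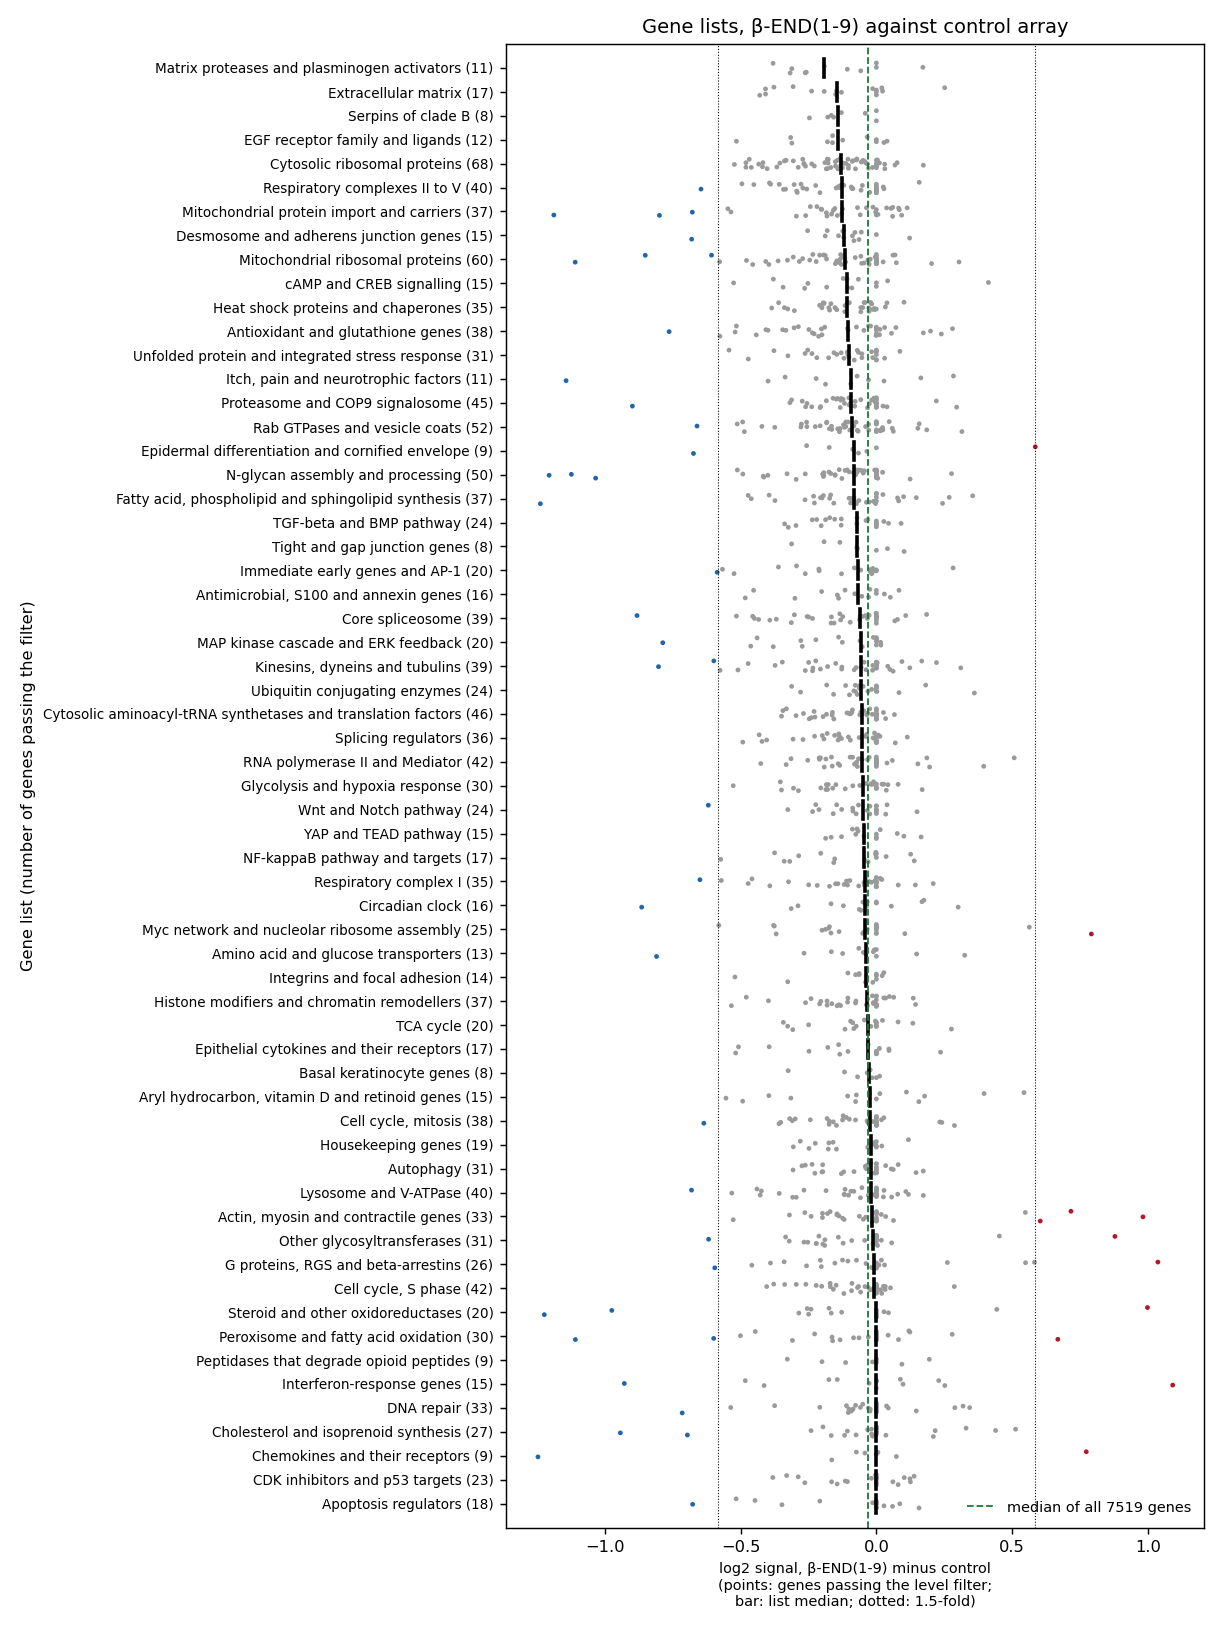
Difference in log2 signal, β-END(1-9) minus control, for the genes of 61 lists with at least 8 genes passing the level filter (number in brackets). Points are genes, bars list medians, the dashed line the median of all 7519 genes (-0.03) and dotted lines 1.5-fold; list medians run from -0.19 to 0 and most turn above 0 after quantile normalization.

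Secreted and surface genes of keratinocytes included the lists furthest from 0. Of 11 matrix proteases, plasminogen activators and their inhibitors 8 were lower and 1 higher, with a median of -0.19 (-0.10 after quantile normalization) and 0 past 1.5-fold. Timp2 and Timp1, inhibitors of metalloproteinases, had 13.94 and 13.56, and 10.57 and 10.25. Plau, the urokinase activator of plasminogen, had 10.68 and 10.36. In the extracellular matrix list 11 of 17 genes were lower, with a median of -0.15 (-0.03), and the laminin chains Lama5 (11.38 and 10.95) and Lamb2 (9.01 and 8.60) were among its widest gaps. Tgfbi, a matrix protein induced by TGF-β, had 11.86 and 11.45. Of 15 desmosome and adherens junction genes 13 were lower, with a median of -0.12 (-0.01). The share of all genes that were lower was 56.1%. Pkp3, a plakophilin of desmosomal plaques, was the member past 1.5-fold, with 10.24 (control), 9.56 (β-END(1-9)) and 9.65 (Met-ENK).

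Genes of epidermal differentiation were mostly at background, since 9 of 24 measured genes passed the filter. Of these 7 were lower, 1 was higher and 1 equal, with a median of -0.08 (0.01 after quantile normalization). Cst6, the cystatin that restrains proteases of the cornified layer, had 13.23, 12.55 and 12.10 on the control, β-END(1-9) and Met-ENK arrays, a difference of -0.67. Krt76 had 7.15 and 7.74 and lay at background on the control array. The envelope genes Evpl (9.15 and 8.90), Ppl (13.61 and 13.53) and Tgm1 (10.65 and 10.56) were nearer to their control values. Foxn1, a transcription factor of keratinocyte differentiation outside the list and named after its values were seen, had 8.56, 7.88 and 8.03.

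Chemokine genes were on both sides. Cxcl6, a neutrophil-attracting chemokine, was above background on the control array alone, with 8.05 (control), 6.80 (β-END(1-9)) and 7.09 (Met-ENK), a difference of -1.25. The related Cxcl1 (12.88 and 12.95) and Cxcl2 (7.85 and 7.78) were close to their control values, and Ccl2, a monocyte attractant, was 13.28 on every array. Cxcl14 had 6.15 and 6.93, within the background range, and on the control array it was under the filter limit of 6.41. Of 9 chemokine genes passing the filter 3 were higher and 4 lower. Among 17 cytokine and receptor genes 4 were higher and 9 lower, and 0 reached 1.5-fold. Its wider gaps were those of Lif (10.31 and 9.80), an IL-6 family cytokine, and Il4r (10.29 and 9.78), the receptor chain for IL-4 and IL-13. Among itch, pain and neurotrophic genes 8 of 11 were lower with a median of -0.09 (-0.02), among them Nppb, the natriuretic peptide that serves as an itch transmitter (11.83 and 11.43), and Bdkrb2, a bradykinin receptor (8.21 and 7.88).

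The ribosome and mitochondrion were represented by large lists with small shifts. Of 79 listed cytosolic ribosomal protein genes 68 were measured, and these 68 passed the filter. Of them 55 were lower, 8 higher and 5 equal, and the median was -0.13 (-0.02 after quantile normalization), with 0 past 1.5-fold. Among all genes 56.1% were lower and 18.8% higher. Rpl13 (14.43, 13.91 and 13.52), Rpl18 (15.36, 14.88 and 14.66) and Rpl28 (15.91, 15.43 and 15.00) had the widest gaps. For all 3 the β-END(1-9) array lay between control and Met-ENK. Of 60 mitochondrial ribosomal protein genes 40 were lower and 6 higher, with a median of -0.11 (-0.02), and 3 were at least 1.5-fold lower (background 2.27%): Mrpl12 (7.80, 6.70 and 6.30), Mrps7 (8.98, 8.13 and 7.90) and Mrpl53 (10.75, 10.14 and 9.21). Mrpl12 was below background on the β-END(1-9) array.

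Respiratory chain genes had 1 call in each list, 2.86% of complex I and 2.5% of complexes II to V. These shares were near the 2.27% of all genes that were at least 1.5-fold lower. In complex I, 23 of 35 genes were lower, with a median of -0.04 (0.04 after quantile normalization), and Ndufb10 had 9.34 and 8.69. In complexes II to V, 27 of 40 were lower, with a median of -0.13 (-0.03). By any amount, 56.1% of all genes were lower. Atp5f1e, the ε subunit of ATP synthase, had 11.86 (control), 11.21 (β-END(1-9)) and 10.45 (Met-ENK). Of 37 genes for import into mitochondria and for their carriers, 25 were lower and 9 higher, with a median of -0.12 (-0.02). The median was -0.06 over the 34 of them above background on both arrays. At least 1.5-fold lower were 3 of the 37 (8.11%), against 2.27% of all genes. Mpc1, a subunit of the carrier that brings pyruvate into the organelle, had 11.63, 10.95 and 10.52. Dnajc30 had 8.45, 7.26 and 8.14, and Abcb8, a transporter of the inner membrane, had 8.11, 7.31 and 7.31. Dnajc30 and Abcb8 were below background on the β-END(1-9) array, while Mpc1 was above it on both. The TCA cycle list lay at -0.03 (0.08 after quantile normalization) with 0 of 20 genes past 1.5-fold.

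Genes of sterol and isoprenoid synthesis lay on both sides. Of 27 genes 12 were lower, 7 higher and 8 equal, with a median of 0 (0.08 after quantile normalization). At least 1.5-fold lower were 2 of them (7.41%, against 2.27% of all genes). Idi1, which isomerises the isopentenyl unit, had 12.70 (control), 12.01 (β-END(1-9)) and 12.85 (Met-ENK), a difference of -0.70. Ggps1, which makes the geranylgeranyl chain used to anchor small GTPases, had 9.44, 8.50 and 8.64, a difference of -0.94. Insig2, which retains the sterol sensor in the endoplasmic reticulum, was on the other side with 8.32, 8.83 and 8.87. Fdps, Fdft1 and Sqle, at steps between or beyond these, had exactly equal signals on the control and β-END(1-9) arrays. So did 25.1% of all genes. Chm, which escorts Rab proteins to their geranylgeranyl transferase, was among the 20 highest genes with 9.91, 10.50 and 10.50. In the list of fatty acid, phospholipid and sphingolipid synthesis 25 of 37 genes were lower, with a median of -0.08 (0.02 after quantile normalization), and Plppr2 (7.30 and 6.07) was past 1.5-fold at background level.

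In the N-glycan list 3 of 50 genes were at least 1.5-fold lower (2.27% of all genes were), and 34 were lower and 4 higher by any amount (56.1% and 18.8% of all genes), with a median of -0.08 (0.02 after quantile normalization). Alg5, which makes dolichol-phosphate glucose for the precursor glycan, had 8.21 (control), 7.01 (β-END(1-9)) and 7.37 (Met-ENK). St6gal1, which caps chains with α2,6-linked sialic acid, had 8.04 on the control array, 7.39 with Met-ENK and a difference of -1.03 with β-END(1-9). Man1c1, a Golgi mannosidase, had 7.14 and 6.02, both at background. Dolk, the dolichol kinase, had 10.12 and 9.60. Ogt, which adds the single sugar GlcNAc to nuclear and cytosolic proteins, had 10.23, 9.61 and 10.24, a difference of -0.62. Fuca1, a lysosomal fucosidase, had 9.55, 8.87 and 9.07. Of these, St6gal1 and Alg5 crossed the background limit, while Ogt and Fuca1 stayed above it.

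Protein quality control and stress lists had mostly small negative values, with Cops9 and Prdx4 as the members past 1.5-fold. These are 2.22% and 2.63% of their lists, near the 2.27% of all genes that were lower by that fold. Of 35 heat shock and chaperone genes 31 were lower and 3 higher, with a median of -0.11 (-0.0032 after quantile normalization), and 0 were past 1.5-fold. For comparison, 56.1% of all genes were lower and 18.8% higher by any amount. Hsp90b1, a chaperone of the endoplasmic reticulum, had 14.42, 14.05 and 14.44 in the order control, β-END(1-9) and Met-ENK, and Dnajb11, the co-chaperone ERdj3, had 12.47, 11.93 and 12.22. In the list of the unfolded protein and integrated stress response 23 of 31 were lower and 2 higher, with a median of -0.10 (-0.01). Among 45 proteasome and COP9 signalosome genes 31 were lower, with a median of -0.09 (0.02), and Cops9 was the member past 1.5-fold, with 10.82, 9.92 and 9.34. Of 38 antioxidant and glutathione genes 25 were lower and 9 higher, with a median of -0.10 (0.01). Prdx4, the peroxiredoxin of the secretory pathway, had 9.56, 8.80 and 9.15, and Gpx4, which reduces lipid peroxides, had 11.64, 11.12 and 10.84.

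Cell division and gene expression lists were closer to the median of all genes. Single lower calls made up 2.63% of the mitosis, 3.03% of the DNA repair, 2.56% of the core spliceosome and 5.56% of the apoptosis genes. Over all genes 2.27% were at least 1.5-fold lower. Of 42 S phase genes 22 were lower and 7 higher, with a median of -0.01 (0.07 after quantile normalization) and 0 past 1.5-fold. Of 38 mitosis genes 20 were lower and 6 higher, and Pttg1, securin, was past 1.5-fold with 10.52, 9.88 and 9.39. Ung, the uracil-DNA glycosylase, was the call among 33 DNA repair genes, with 9.99, 9.27 and 9.73. CDK inhibitors and p53 targets had a median of 0 (0.09) and 0 of 23 past 1.5-fold, with Cdkn1b at 10.10 and 9.77. Of 39 core spliceosome genes 26 were lower and 4 higher, with a median of -0.06 (0.02), and Zcrb1, of the minor spliceosome, had 8.59, 7.71 and 7.24. Of 42 genes of RNA polymerase II and Mediator 24 were lower, and Polr2k was on the higher side with 11.14, 11.65 and 11.32. Among 18 apoptosis genes Bid, which links death receptors to mitochondria, had 8.21, 7.54 and 8.14.

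Some families were written out in full after single members had been seen among the lower genes, so their counts describe and support nothing. Over all 7519 genes 2.27% were at least 1.5-fold lower, and the medians of these families were not recomputed under other scalings. Of 34 genes that modify tRNA or elongation factors, 6 were at least 1.5-fold lower: Dph5, Rpusd2, Elp5, Trmt10c, Trmt1l and Mettl6, with differences from -1.09 to -0.59. Of 8 genes of the SMN complex, which assembles spliceosomal particles, Gemin8 (-0.77), Gemin7 (-0.67) and Gemin4 (-0.59) were lower by that much, Gemin7 at background. Of 44 genes of intraflagellar transport, the BBSome and centrioles 8 were. The median of those 44 was -0.17, and it was -0.08 over the 27 of them above background on both arrays. Of 8 sialyltransferases, St6gal1 and St3gal6 (-0.85) were, and of 5 arginylation and N-degron genes, Ate1 (-0.76) and Ntaq1 (-0.62). Dph5, Trmt1l, St6gal1, St3gal6 and Ntaq1 were above background on the control array and below it on the β-END(1-9) array. In each of these families 0 genes were at least 1.5-fold higher. Over all genes 0.559% were, so a count of 0 tells little in lists of this size.

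The precursor of a microRNA was also among the genes that crossed the background limit, and it is named here after its values were seen. Mir3584 had 8.56 (control), 7.59 (β-END(1-9)) and 8.50 (Met-ENK), a difference of -0.97. The array reports the transcript cluster, and the mature strands were not measured. Both are shown because the strands differ in their seeds, bases 2 to 8, which are in capitals. RefSeq places them in build GRCr8 on the minus strand, at chr1:256727582-256727599 and chr1:256727542-256727560.
rno-miR-3584-5p: gGGAGGAGuccaggaggc
rno-miR-3584-3p: gCCCGCAUcucuggauccc
Of 11 microRNA genes named in the annotation 5 passed the filter, among them Mir3542 (10.02 and 9.67), Mir6315 (9.34 and 9.28) and Mir3102, at 7.98 on every array.

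Several of the widest positive differences lay in genes of other cell types and at background level. Cybb, which encodes the catalytic chain of the NADPH oxidase of phagocytes, had 5.57 (control), 7.33 (β-END(1-9)) and 7.03 (Met-ENK), a difference of 1.76 and the largest of all 7519, with every signal under 7.6. Bst2, an interferon-induced membrane tether, had 6.33, 7.42 and 6.56. On the control array Cybb and Bst2 lay under the filter limit of 6.41, so both passed the filter through their signals on the peptide arrays. Of 17 immune cell markers 15 were at background, and the defining Ptprc had 4.08 and 4.02, Itgam 2.68 and 2.52, and Spi1 3.32 and 3.23. The 2 above it were Cd74, at 9.09 on every array, and Cd14, with 8.65 (control), 8.48 (β-END(1-9)) and 8.48 (Met-ENK). The log2 of the summed linear signal of this list was 10.46 (control), 10.56 (β-END(1-9)) and 10.62 (Met-ENK). Interferon-response genes had a median of 0 (0.03 after quantile normalization), with Bst2 higher and Isg20 (7.41 and 6.48) lower past 1.5-fold. The part that scatter at low signal has in these values was not tested.

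Myl2, a regulatory light chain of slow and cardiac muscle myosin, was well above background on each array, with 12.41 (control), 13.12 (β-END(1-9)) and 13.56 (Met-ENK), a difference of 0.72. Tnnc1, troponin C of the same muscle types, had 5.74, 6.73 and 7.10, all at background. Its control signal lay under the filter limit of 6.41, so it passed through the peptide arrays. Of 20 muscle markers 19 were at background on both arrays, including Des (3.74 and 3.02), Ckm (4.55 and 4.61) and Myod1 (3.19 and 3.23). The log2 of the summed linear signal of the muscle list was 12.53, 13.21 and 13.63, which is almost wholly Myl2. Of 12 fibroblast markers 10 were at background, of 7 melanocyte markers 6 and of 11 endothelial markers 11, and 0 of the members above background in these 3 lists differed by 1.5-fold. Those members were the collagen genes Col1a1 (8.28 on both) and Col3a1 (8.53 on both) among the fibroblast markers, and the melanocyte marker Mitf (9.76 and 9.56). The xenobiotic and vitamin response genes Cyp1a1 (4.41 and 5.37), Cyp24a1 (5.55 and 6.10), Ahrr (6.56 and 7.10) and Aldh1a3 (3.78 and 3.01) lay within the background range, where such differences have no order.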

How the data were processed

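RNA of 3 FRSK cultures was measured on Affymetrix whole-transcript rat arrays, 1 array per group, with groups taken from the sample titles. The authors deposited log2 signals, 1 for each probe set and array, made with RMA in Affymetrix Expression Console and Transcriptome Analysis Console, per the submitters' processing notes. Their versions, and the build and annotation release, were not given in the sources used here. RMA puts probes of all arrays on a common distribution, which can move genes that truly differ in total. The 1646 control probe sets of 24834 were left out. GEO's platform annotation, dated by its provider and possibly old, named 15049 of 23188 clusters and 15037 genes, and the probe set with the highest mean was taken. All 15049 gene identifiers were found in the RefSeq table of GRCr8, which also gave genomic spans.

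Differences were taken with pandas 2.3.3 and numpy 2.4.6 in Python 3.11.15, and statsmodels 0.14.6 fitted the level trend. The counting steps were tested on simulated data. With 1 array a group, the number of arrays limits precision. No fit dropped or imputed an array. Genes named are the 20 furthest in each direction above background on both arrays, the 6 furthest in each direction above background on 1, in each of 69 lists the 3 widest above background and any past 1.5-fold, and fixed receptor, peptide, response and marker genes; others named are said to be chosen after their values, apart from genes that serve as context within a list. The genes compared, the lists and this rule were chosen with earlier results of these data known. Alternatives tried were other scalings, fold limits, the level filter and the choice of probe set. Promoters are the first listed start of each gene in RefSeq.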

Additional observations from a re-analysis of the deposited data

How the results depend on the processing

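The lean to lower genes kept its direction in each alternative with the level filter, while its size moved. Of the genes past 1.5-fold 64.8% were lower after quantile normalization (62 higher, 114 lower), 72.4% after removal of a trend on level (53 and 139), 73.5% after removal of a trend on genomic span (52 and 144) and 86.3% with the arrays centred on their medians (34 and 215). With no level filter 397 genes were higher and 296 lower (42.7% lower), so below the filter limit higher genes prevailed. Above background on both arrays the counts were 12 and 96 (88.9%). At 2-fold they were 5 and 16 (76.2%), and at 1.3-fold 133 and 632 (82.6%). With the lowest-mean probe set they were again 42 and 171, but this could change little, since 15049 named clusters gave 15037 genes. The median over the 7519 genes was 0.04 after quantile normalization and -0.07 with centred arrays. Of 265 named genes 13 dropped under 1.5-fold and 9 passed it after quantile normalization, and 0 named genes past 1.5-fold changed sign under any scaling. The scalings moved these differences by far less than the 1.5-fold limit, so a change of sign could hardly occur. Medians of 14 of 64 lists moved by more than 0.1 after quantile normalization. No paired analysis was possible because each group is 1 array, and for the same reason no array could be left out. Signals under 7.6 cannot be told from background, and 25.1% of exactly equal values make small differences coarse. The causes of these shifts were not tested.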

Other observations

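Transcript clusters with no gene symbol in the annotation leaned the same way as the named genes. Of 3201 such clusters that passed the level filter, 30 were at least 1.5-fold higher on the β-END(1-9) array (0.937%) and 80 lower (2.50%). The 23 background probe sets had a median difference of 0.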
